A study of Mus musculus with 12 samples.

Results

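The genes that carry out DNA replication and mitosis were examined in RNA from whole adrenals. A list of 44 gene symbols was looked up in the deposited table of 39017 genes. It was drawn up from the known roles of the genes and not from a threshold on their values, but with earlier results of these data known. All 44 genes were found, 18 of DNA replication and 26 of mitosis, and all 44 passed the filter on low counts, so none is missing from the values below. The adrenals, trimmed of fat, came from female mice of 10 to 11 weeks on a mixed sv129-C57Bl/6 background, with 6 libraries of controls (Ctrl) and 6 of βCat-GOF mice. The genotype given for the controls, whose titles name them wild type, is AS Cre/+, and βCat-GOF mice carried it too. In this allele, Cre is made from the *Cyp11b2* (AS) locus and so acts in the aldosterone-producing cells of the zona glomerulosa (zG). βCat-GOF mice also carried Ctnnb1 fl(ex3)/+, an allele that yields a stabilized β-catenin once Cre has removed its exon 3. Recombination was thus directed to zG cells while RNA was taken from the whole gland, and a difference in the number of dividing cells cannot be told apart from a difference in RNA per cell. The comparison asked whether genes of replication and of mitosis were at other levels in the adrenals with stabilized β-catenin, and how far the mice of a group resembled each other.

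A dividing cell uses its replication genes in S phase and its mitosis genes later, in G2 and M phase. Cdc6 and Cdt1 load the Mcm2 to Mcm7 helicase onto origins, and Pcna and Gins2 work at the fork. Rrm1, Rrm2, Tyms and Tk1 supply deoxynucleotides, while E2f and cyclin E proteins govern the passage from G1 to S phase. Cyclins A and B with Cdk1 drive entry into mitosis, and kinases, motor proteins and the anaphase-promoting complex (APC) then assemble the spindle, separate the chromosomes and end the phase. In the adrenal cortex, cells are renewed slowly from the periphery of the gland, so transcripts of division are a small share of the RNA of the whole organ.

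Between 14090378 and 25625494 reads were counted on genes per Ctrl library, and between 13484675 and 24951480 per βCat-GOF library. *Ctnnb1* itself had 20273 to 22606 normalized counts in Ctrl and 19229 to 22432 in βCat-GOF, which does not check the genotype, since a count per gene does not show the loss of an exon. The 7 steroidogenic markers of the cortex used here, such as *Star* and *Cyp11a1*, summed to between 49725 and 98665 CPM (counts scaled to the same library total) in the 12 libraries. The labels of Ctrl 1 and 2, of Ctrl 3 and 4, and of βCat-GOF 1 and 2 share a stem, and what it stands for is not stated. The counts of these pairs differed by a chi-square per degree of freedom of 39.2 to 42.8. All other pairs of libraries of 1 genotype differed by 15.8 to 136. For βCat-GOF 1 the value was lowest with βCat-GOF 2 (39.2, against 79.7 to 136 for its other pairs). For Ctrl 1 and Ctrl 3 it was lower with Ctrl 6 (22.6 and 28.3) than with the library sharing their stem. The measure uses unscaled counts and rises with their number, and Ctrl 6 had the fewest of the Ctrl libraries (14090378). Pairs can thus not be ranked by likeness from it. These values cannot tell separate mice from glands of the same mouse. The libraries were kept as separate samples and are called mice below, which was not checked. The label of βCat-GOF 5 begins with another number than those of the other βCat-GOF mice, and the Ctrl labels begin with a further number. If the number marks a litter or a batch, its share in the differences cannot be told apart from that of genotype. Fits were repeated without βCat-GOF 5, and without Ctrl 1, Ctrl 3 and βCat-GOF 1, called here 1 library per stem.

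Levels are first given per length, as RPKM (counts scaled to library total and exon length), since only then can genes be compared with each other. *Pcna*, the sliding clamp of DNA polymerases, had the highest level of the 44 genes, with 23.6 ± 2.83 RPKM in Ctrl and 26.2 ± 2.54 RPKM in βCat-GOF (SD, n = 6 mice each). The means of *Mcm2* to *Mcm7* lay between 4.44 RPKM (*Mcm5*) and 8.05 RPKM (*Mcm7*) in Ctrl. The mitosis gene with the highest Ctrl mean was *Cdc20*, an activator of the APC, at 2.11 RPKM. At the other end stood *E2f8*, a repressor among the E2f factors, at 0.173 RPKM and *Cdc6* at 0.228 RPKM. Replication genes thus spanned a wide range, while the Ctrl means of mitosis genes stayed between 0.267 RPKM (*Cenpf*) and 2.11 RPKM. A mean above 100 normalized counts over the 12 libraries, the lower limit used by the study, was reached by 11 of 18 replication genes and by 9 of 26 mitosis genes.

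None of the 44 genes had an adjusted p under 0.05 in edgeR's quasi-likelihood test over 14953 genes, while 43 of them had a higher fitted level in βCat-GOF than in Ctrl. Among replication genes 18 of 18 were higher, with a median log2 fold change of 0.28 (0.071 to 0.87). Among mitosis genes 25 of 26 were higher, with a median of 0.64 (-0.084 to 0.99), and the exception was *Bub1b*. Over all genes tested the median was 0.00011 and 50.0% were higher. The genes are known to move together with the number of dividing cells, so 44 genes are not 44 independent readings of the mice. Since they were chosen with earlier results of these data known, no p is given for these counts.

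**Figure D1:**
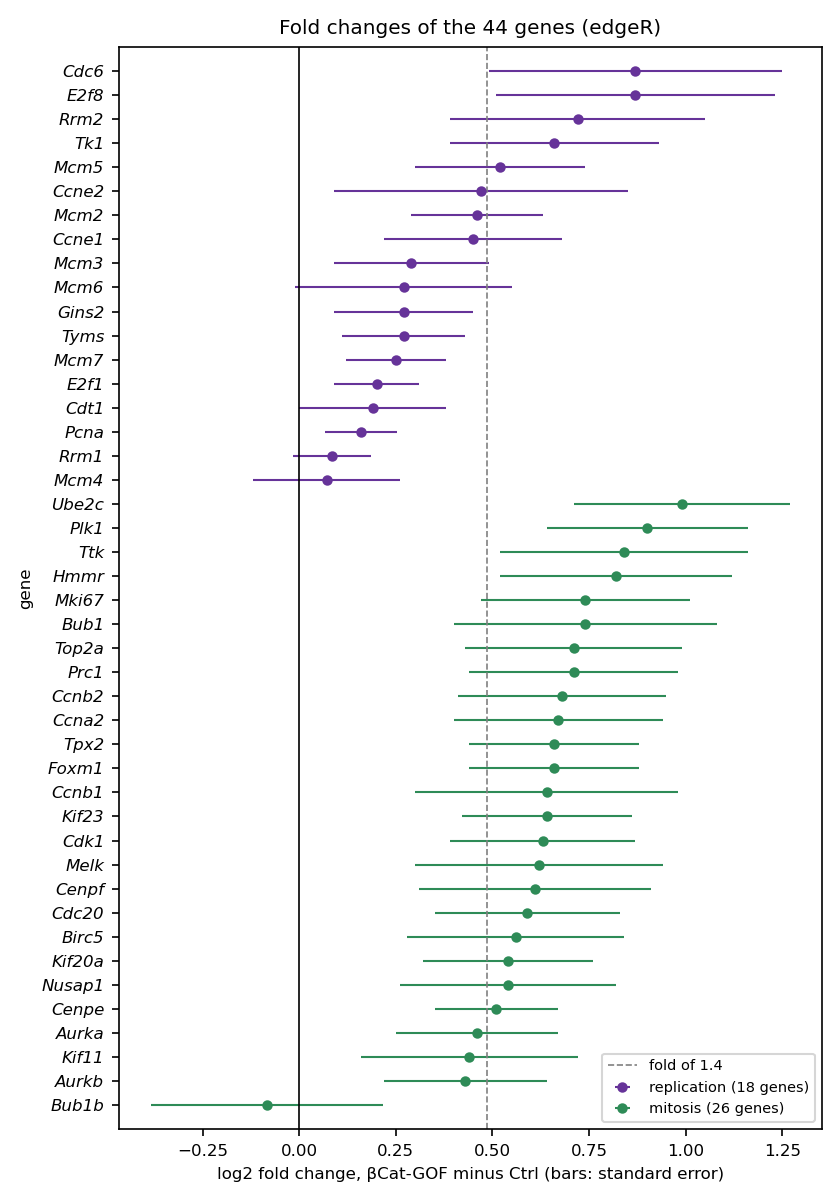
Log2 fold change (βCat-GOF minus Ctrl) of each of the 44 genes, with bars of 1 standard error from edgeR's fit. Purple points are the 18 replication genes and green points the 26 mitosis genes, and the dashed line marks a fold of 1.4. All points but *Bub1b* lie above 0, and 5 replication genes and 22 mitosis genes lie beyond the dashed line.

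A fitted fold above 1.4 was found for 5 of 18 replication genes and 22 of 26 mitosis genes, against 6.98% of all genes tested. An unadjusted p under 0.05 with a higher level in βCat-GOF was found for 6 replication genes and 18 mitosis genes, against 9.73% of all genes. After adjustment over all genes the count was 0 in both sets (2.16% of all genes), and the adjusted p ran from 0.16 to 0.87 for replication and from 0.067 to 0.91 for mitosis. In edgeR no gene of either set met all of the study's cut-offs (fold above 1.4, base mean above 100, adjusted p under 0.05), which 1.94% of the genes above that base mean met upwards. In DESeq2, the tool used by the study, 0 replication genes and 6 mitosis genes had an adjusted p under 0.05 (3.98% of its genes upwards). These 6 were *Ube2c* (0.012), *Plk1* (0.014), *Cenpe* (0.035), *Foxm1* (0.038), *Tpx2* (0.044) and *Kif23* (0.049), of which *Tpx2* alone also met the cut-offs of fold and base mean. In simulated data DESeq2 made 27 false calls beside 169 true ones at that limit, and edgeR 6 beside 155. *Plk1* was the only one of the 44 genes whose 6 βCat-GOF values all lay above the 6 Ctrl values, an arrangement seen in 1.61% of all genes.

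Single mice weighed on these counts. Without βCat-GOF 5, the mitosis genes with an unadjusted p under 0.05 dropped from 18 to 8, and their median log2 fold change was 0.49. With 1 library per stem, 3 mitosis genes and 0 replication genes had such a p, and the medians were 0.47 and 0.22. For replication the count went from 6 to 1 when Ctrl 3, Ctrl 4, βCat-GOF 1 or βCat-GOF 5 was left out. Its median went up to 0.45 without Ctrl 2. Leaving out any single mouse left at least 17 of 18 replication genes and at least 25 of 26 mitosis genes higher in βCat-GOF. The genes that changed sign were *Mcm4*, lower without βCat-GOF 1, without βCat-GOF 5 and with 1 library per stem, and *Bub1b*, higher without Ctrl 5 or βCat-GOF 2.

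The promoters of the genes differ between the sets in letters that were not used to choose them. The cell cycle genes homology region (CHR) and the CCAAT box are known from promoters active in G2 and M phase, and E2F sites from promoters active at the start of S phase. RefSeq promoter windows (GRCm38.p6, 250 bases before to 50 after the start) were given for 36 of the 44 genes, 15 of replication and 21 of mitosis, with 2 windows each for *Mcm7* and *Prc1*. A gene was counted where any of its windows held the letters. *Ccne2*, *Gins2*, *Mcm4*, *Aurkb*, *Ccna2*, *Foxm1*, *Kif20a* and *Tpx2* had no window. The letters searched on both strands were TTTGAA for the CHR, CCAAT for the CCAAT box, and, for E2F, either TTCCCGC or its variants with TTGGCGC, with TTCGCGC or with TTGCCGC. Matches of different motifs can share letters, as with TTGGCGC and a CCAAT box read on the other strand. The CHR letters were in 15 of 21 mitosis genes (71.4%), 2 of 15 replication genes (13.3%) and 17.9% of all 32851 windows of that length. The CCAAT letters were in 18 mitosis genes (85.7%), 9 replication genes (60.0%) and 37.4% of all windows. The E2F letters were in 4 mitosis genes (19.0%), 9 replication genes (60.0%) and 9.57% of all windows. These are matches of letters and no measurement of binding.

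The windows of 4 genes are printed to show how a mitosis promoter and a replication promoter can differ. They were picked after the matches were seen, among genes described below. Each begins 250 bases before the RefSeq start and ends at most 30 bases into the annotated gene, is written 5′ to 3′ on the strand of the gene, and has matches of any of the motifs in capitals. *Ube2c* (chr2:164769679-164769927, plus strand) holds 1 CHR match and 6 CCAAT matches, of which a pair overlaps. Its CHR match begins 29 bases before the RefSeq start, which is just inside the annotated gene. *Mki67* (chr7:135716350-135716629, minus strand) holds 2 CHR, 3 CCAAT and 1 E2F matches. *Mcm5* (chr8:75109259-75109538, plus strand) holds no CHR match, 3 CCAAT matches and 3 E2F matches, of which a pair overlaps. *Mcm2* (chr6:88898751-88899030, minus strand) is 1 of the 2 replication genes with a CHR match, which begins 70 bases before its RefSeq start, and it also holds 1 CCAAT match.
Ube2c: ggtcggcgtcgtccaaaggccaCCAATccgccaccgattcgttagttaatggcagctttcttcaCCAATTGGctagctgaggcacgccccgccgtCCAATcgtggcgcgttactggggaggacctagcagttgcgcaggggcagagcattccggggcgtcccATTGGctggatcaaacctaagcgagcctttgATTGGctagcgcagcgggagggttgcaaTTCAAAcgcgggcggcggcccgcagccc
Mki67: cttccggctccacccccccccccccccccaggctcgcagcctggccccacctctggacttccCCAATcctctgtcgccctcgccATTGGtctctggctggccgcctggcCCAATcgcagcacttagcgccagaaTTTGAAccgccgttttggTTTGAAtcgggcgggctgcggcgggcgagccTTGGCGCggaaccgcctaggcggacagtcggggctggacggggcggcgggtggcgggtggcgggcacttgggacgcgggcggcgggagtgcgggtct
Mcm5: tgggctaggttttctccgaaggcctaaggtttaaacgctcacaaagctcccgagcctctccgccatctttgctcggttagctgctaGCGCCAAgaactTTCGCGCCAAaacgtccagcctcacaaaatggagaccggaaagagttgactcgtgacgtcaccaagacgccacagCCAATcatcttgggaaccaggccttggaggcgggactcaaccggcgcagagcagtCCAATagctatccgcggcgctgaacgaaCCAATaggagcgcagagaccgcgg
Mcm2: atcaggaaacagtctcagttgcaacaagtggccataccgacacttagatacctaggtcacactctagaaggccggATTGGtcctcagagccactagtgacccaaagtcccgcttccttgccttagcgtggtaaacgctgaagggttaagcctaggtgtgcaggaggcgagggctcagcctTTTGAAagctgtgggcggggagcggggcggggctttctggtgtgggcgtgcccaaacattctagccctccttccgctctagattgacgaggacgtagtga

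*Mcm2* (ENSMUSG00000002870, chr6:88883474-88898780) had the smallest adjusted p of the replication genes. In Ctrl 1 to 6 it had 840, 1162, 806, 559, 1014 and 721 normalized counts, and in βCat-GOF 1 to 6 it had 1426, 1252, 889, 954, 1409 and 1132. βCat-GOF 1, 2 and 5 lay above the highest Ctrl and the other 3 lay among the Ctrl values. The means were 850 ± 213 and 1177 ± 226 (SD, n = 6 mice each), a log2 fold change of 0.46 (SE 0.17, edgeR adjusted p = 0.16).

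*Mcm5* (ENSMUSG00000005410, chr8:75109569-75128439), of the same helicase, had 418, 476, 318, 191, 378 and 348 normalized counts in Ctrl 1 to 6. In βCat-GOF 1 to 6 it had 642, 519, 439, 307, 724 and 436. The highest values were again in βCat-GOF 1, 2 and 5, and the groups overlapped (log2 fold change 0.52, SE 0.22, edgeR adjusted p = 0.21). The other subunits were closer to Ctrl. *Mcm3*, *Mcm6* and *Mcm7* had log2 fold changes of 0.29, 0.27 and 0.25, and *Mcm4* had 0.071 (SE 0.19), the smallest of the 18, and -0.093 with 1 library per stem. *Mcm3* had 0.18 without Ctrl 4 and 0.19 without βCat-GOF 5. *Mcm6* was marked by a single control, since Ctrl 2 had 1252 normalized counts where the other Ctrl mice had 415 to 623. Its log2 fold change was 0.58 without Ctrl 2, 0.13 without βCat-GOF 2 and 0.054 with 1 library per stem. *Mcm7* shares 72.8% of its transcript with a near-identical copy elsewhere, *Gm5487*, so its count of uniquely mapping reads may be incomplete.

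*Cdc6* (ENSMUSG00000017499, chr11:98907801-98923940), which loads the helicase, had 17.8, 25.0, 22.1, 14.7, 34.1 and 29.3 normalized counts in Ctrl 1 to 6. In βCat-GOF 1 to 6 it had 68.8, 22.4, 39.4, 20.6, 86.7 and 21.8. βCat-GOF 1, 3 and 5 lay above the highest Ctrl mouse, with 1 and 5 far the highest, while βCat-GOF 2, 4 and 6 lay below the Ctrl mean of 23.8 (log2 fold change 0.87, SE 0.38, edgeR adjusted p = 0.22). The log2 fold change was 0.57 without βCat-GOF 5 and also with 1 library per stem. A copy elsewhere, *Gm9430*, matches 26.1% of the transcript of *Cdc6*. Its partner *Cdt1* had a log2 fold change of 0.19 (SE 0.19), with its highest Ctrl value, 128 normalized counts, in Ctrl 2. It was 0.34 without Ctrl 2, 0.099 without βCat-GOF 5 and 0.080 with 1 library per stem.

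*Pcna* (ENSMUSG00000027342, chr2:132249162-132253314), widely used as a marker of dividing cells, hardly separated the groups. It had 1178, 1008, 930, 1171, 1201 and 1300 normalized counts in Ctrl 1 to 6, and 1125, 1193, 1185, 1261, 1344 and 1498 in βCat-GOF 1 to 6. The log2 fold change was 0.16 (SE 0.094, edgeR adjusted p = 0.38, and 0.099 as log2 fold change without βCat-GOF 6), and βCat-GOF 1, high for most of the other genes, was the lowest βCat-GOF mouse here. Pcna is also used in DNA repair outside S phase. A copy elsewhere, *Pcna-ps2*, matches 51.4% of its transcript. *Gins2*, part of the helicase at the fork, had a log2 fold change of 0.27 (SE 0.18), and 67.3% of its exon bases overlap *Gse1* on the other strand. Whether the counting used the strand is not stated, so reads of *Gse1* may be among those of *Gins2*.

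Of the genes of nucleotide supply, *Rrm2* and *Tk1* were further from Ctrl than *Rrm1* and *Tyms*. *Rrm2* (ENSMUSG00000020649, chr12:24708241-24714146), the ribonucleotide reductase subunit tied to S phase, had 73.1, 148, 43.4, 73.5, 119 and 90.8 normalized counts in Ctrl 1 to 6. It had 174, 126, 117, 63.3, 278 and 145 in βCat-GOF 1 to 6, a log2 fold change of 0.72 (SE 0.33, edgeR adjusted p = 0.25). This was 0.46 without βCat-GOF 5 and 0.42 with 1 library per stem. A copy elsewhere, *Gm48455*, matches 19.1% of the transcript of *Rrm2*. Its partner subunit *Rrm1*, whose protein varies less over the cycle, stood at 982 ± 64.8 and 1046 ± 165 normalized counts (log2 fold change 0.085, SE 0.10). *Tk1* (ENSMUSG00000025574, chr11:117815526-117826092), thymidine kinase, had 45.0, 65.8, 37.3, 25.2, 58.4 and 50.3 normalized counts in Ctrl 1 to 6. In βCat-GOF 1 to 6 it had 104, 51.7, 50.1, 55.4, 104 and 82.7, with βCat-GOF 1, 5 and 6 above every Ctrl mouse (log2 fold change 0.66, SE 0.27, edgeR adjusted p = 0.19). *Tyms*, thymidylate synthase, had a log2 fold change of 0.27 (SE 0.16), and 0.12 without βCat-GOF 5. A copy elsewhere, *Tyms-ps*, matches 17.3% of its transcript.

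Among the G1/S regulators *E2f8* (ENSMUSG00000046179, chr7:48866429-48881596) had 22.5, 18.3, 6.86, 14.7, 32.3 and 18.2 normalized counts in Ctrl 1 to 6. It had 43.3, 50.7, 21.5, 22.1, 48.3 and 19.5 in βCat-GOF 1 to 6, a log2 fold change of 0.87 (SE 0.36, edgeR adjusted p = 0.20). Unlike most of the genes, it was highest in βCat-GOF 2. *E2f1*, an activator of S phase genes, had 292 ± 19.0 normalized counts in Ctrl and 336 ± 39.8 in βCat-GOF. The log2 fold change was small (0.20, SE 0.11, edgeR adjusted p = 0.32), though 4 βCat-GOF mice lay above the highest Ctrl mouse. The cyclins *Ccne1* and *Ccne2*, which with Cdk2 start S phase, had log2 fold changes of 0.45 (SE 0.23) and 0.47 (SE 0.38). *Ccne2* had 107 and 121 normalized counts in βCat-GOF 1 and 5 but 17.4 in βCat-GOF 4, the lowest of the 12 mice, and its log2 fold change was 0.25 without βCat-GOF 1, 0.20 without βCat-GOF 5 and 0.092 with 1 library per stem. Of its exon bases 17.4% overlap *Ints8* on the other strand.

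**Figure D2:**
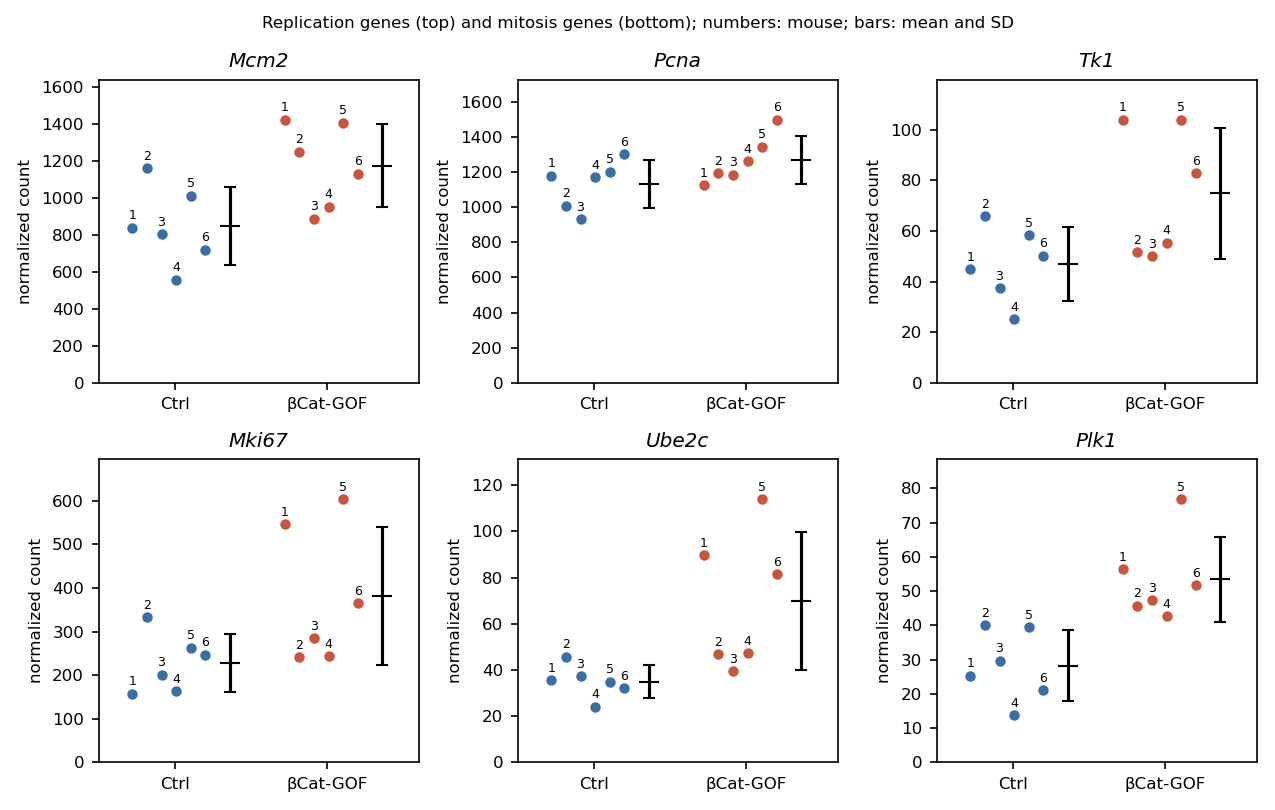
Normalized counts of *Mcm2*, *Pcna* and *Tk1* (replication, top) and of *Mki67*, *Ube2c* and *Plk1* (mitosis, bottom) in each of the 6 Ctrl (blue) and 6 βCat-GOF (red) mice, numbered as in the text, with the mean and SD of each group as bars. Values of *Pcna* overlap widely between the groups. For *Mki67* 3 βCat-GOF mice and for *Ube2c* 5 lie above the highest Ctrl mouse, and *Plk1* does not overlap.

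*Mki67* (ENSMUSG00000031004, chr7:135689784-135716361), which coats mitotic chromosomes and is the common histological marker of cycling cells, had 158, 333, 201, 163, 263 and 247 normalized counts in Ctrl 1 to 6. In βCat-GOF 1 to 6 it had 547, 241, 285, 244, 604 and 365. The 3 mice βCat-GOF 1, 5 and 6 were above every Ctrl mouse, and βCat-GOF 2, 3 and 4 were within the Ctrl range. The means were 228 ± 67.2 and 381 ± 158, a log2 fold change of 0.74 (SE 0.27, edgeR adjusted p = 0.14), or 0.45 with 1 library per stem. *Top2a* (ENSMUSG00000020914, chr11:98992943-99024189), the topoisomerase that untangles sister chromatids, had 195, 351, 219, 173, 301 and 284 normalized counts in Ctrl 1 to 6 and 568, 247, 325, 232, 708 and 428 in βCat-GOF 1 to 6. The same 3 mice were above every Ctrl mouse (log2 fold change 0.71, SE 0.28, edgeR adjusted p = 0.17, and 0.47 with 1 library per stem).

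*Plk1* (ENSMUSG00000030867, chr7:122159439-122169873), the polo-like kinase of mitotic entry and spindle assembly, had 25.3, 40.0, 29.7, 13.7, 39.5 and 21.0 normalized counts in Ctrl 1 to 6. In βCat-GOF 1 to 6 it had 56.4, 45.8, 47.4, 42.7, 76.9 and 51.7. The groups did not overlap, though the gap between 40.0 and 42.7 was small beside the SDs of 10.4 and 12.4. The log2 fold change was 0.90 (SE 0.26, edgeR adjusted p = 0.074). *Foxm1* (ENSMUSG00000001517, chr6:128362967-128376146), a transcription factor of G2 and M phase genes, had 42.2, 53.3, 47.2, 64.1, 64.7 and 67.0 normalized counts in Ctrl 1 to 6 and 117, 82.9, 65.3, 55.4, 122 and 90.7 in βCat-GOF 1 to 6. βCat-GOF 1, 2, 5 and 6 exceeded every Ctrl mouse (log2 fold change 0.66, SE 0.22, edgeR adjusted p = 0.12, and 0.42 with 1 library per stem).

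The remaining genes of mitotic entry lay between *Aurka*, a centrosomal kinase, at a log2 fold change of 0.46 (SE 0.21) and *Ccnb2* at 0.68 (SE 0.27). *Ccna2*, cyclin A, had 0.67 (SE 0.27), *Ccnb1*, the main B cyclin, 0.64 (SE 0.34), its kinase *Cdk1* 0.63 (SE 0.24), and the kinase *Melk* 0.62 (SE 0.32). Their edgeR adjusted p values were between 0.17 and 0.30. *Ccna2* shares 12.5% of its exon bases with *Exosc9* on the other strand. Without βCat-GOF 5 the log2 fold changes of *Ccnb1*, *Aurka* and *Melk* were 0.41, 0.30 and 0.34. *Ccnb1* was lowest of all 12 mice in βCat-GOF 4 (20.6 normalized counts) and highest in βCat-GOF 5 (109). It has several near-identical copies, of which *Ccnb1-ps*, *Gm12856* and *Gm8416* each match over 51.7% to 51.9% of its transcript, so its value is uncertain.

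*Ube2c* (ENSMUSG00000001403, chr2:164769898-164778822), the ubiquitin-conjugating enzyme of the APC, had the largest log2 fold change and the smallest adjusted p of the 44 genes. It had 35.6, 45.8, 37.3, 24.2, 35.0 and 32.1 normalized counts in Ctrl 1 to 6 and 89.7, 46.8, 39.4, 47.4, 114 and 81.5 in βCat-GOF 1 to 6. Only βCat-GOF 3 lay below the highest Ctrl mouse. The means were 35.0 ± 7.06 and 69.9 ± 29.9, a log2 fold change of 0.99 (SE 0.28, edgeR adjusted p = 0.067, and 0.040 without βCat-GOF 3). Of its exon bases 22.8% overlap *Tnnc2* on the other strand. *Cdc20*, which acts with the same complex, had a log2 fold change of 0.59 (SE 0.24), with 56.5 normalized counts in βCat-GOF 2 as the lowest of the 12 mice.

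The spindle checkpoint kinases did not move as a block. *Ttk* and *Bub1*, which signal unattached kinetochores, had log2 fold changes of 0.84 (SE 0.32) and 0.74 (SE 0.34). For *Ttk* this was 0.53 without βCat-GOF 5, and for *Bub1* 0.46 with 1 library per stem. *Bub1b*, the checkpoint protein BubR1, had 68.4, 112, 60.2, 117, 183 and 147 normalized counts in Ctrl 1 to 6 and 137, 52.6, 107, 79.1, 148 and 125 in βCat-GOF 1 to 6. Its highest value was in Ctrl 5 and its lowest in βCat-GOF 2, so the order of the groups seen in the other genes was absent (log2 fold change -0.084, SE 0.30, edgeR adjusted p = 0.91). It ran from -0.21 without Ctrl 3 to 0.10 without Ctrl 5, and was -0.45 with 1 library per stem. In the chromosomal passenger complex, *Aurkb*, its kinase, and *Birc5*, survivin, had 0.43 (SE 0.21) and 0.56 (SE 0.28). *Birc5* had 0.35 without βCat-GOF 5, and *Aurkb* 0.26 with 1 library per stem.

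The 9 genes of the spindle, kinetochore and midzone had log2 fold changes from 0.44 to 0.82. *Cenpe* (ENSMUSG00000045328, chr3:135212537-135273611), a kinetochore motor, had 61.8, 72.5, 54.9, 60.9, 79.1 and 57.3 normalized counts in Ctrl 1 to 6 and 92.0, 66.3, 115, 87.0, 98.6 and 96.4 in βCat-GOF 1 to 6. Only βCat-GOF 2 was within the Ctrl range, and here βCat-GOF 3 was the highest (log2 fold change 0.51, SE 0.16, edgeR adjusted p = 0.10). *Tpx2* (ENSMUSG00000027469, chr2:152847964-152895321), which nucleates microtubules and activates Aurka, had 99.3, 118, 107, 81.9, 123 and 109 in Ctrl 1 to 6 and 195, 95.5, 143, 120, 266 and 196 in βCat-GOF 1 to 6. In βCat-GOF 2 and 4 it stayed within the Ctrl range (log2 fold change 0.66, SE 0.22, edgeR adjusted p = 0.12). *Kif23* (ENSMUSG00000032254, chr9:61915905-61946774), a midzone motor of cytokinesis, had 42.2, 70.0, 48.0, 45.2, 54.8 and 60.1 in Ctrl 1 to 6 and 117, 58.5, 72.5, 55.4, 104 and 94.1 in βCat-GOF 1 to 6. βCat-GOF 2 and 4 were again among the Ctrl values (log2 fold change 0.64, SE 0.22, edgeR adjusted p = 0.13, and 0.41 with 1 library per stem).

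The others of this group were *Hmmr*, a spindle assembly protein (0.82, SE 0.30), *Prc1*, a bundler of midzone microtubules (0.71, SE 0.27), *Cenpf*, of the outer kinetochore (0.61, SE 0.30), *Nusap1*, a spindle protein (0.54, SE 0.28), and the motors *Kif20a* (0.54, SE 0.22) and *Kif11* (0.44, SE 0.28), all as log2 fold changes. Their edgeR adjusted p values were between 0.14 and 0.39. *Cenpf* and *Kif11* had 0.37 and 0.29 without βCat-GOF 5, and *Nusap1* and *Kif11* 0.30 and 0.21 with 1 library per stem. *Kif20a* shares 29.3% of its exon bases with *Cdc23* on the other strand.

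The mice of both groups spread over a wider range than the distance between the groups. To follow this per mouse, the log2 CPM of the genes of a set was averaged in each mouse. For replication the mean was 3.24 ± 0.25 in Ctrl and 3.59 ± 0.37 in βCat-GOF (SD, n = 6 mice each). For mitosis it was 1.78 ± 0.28 and 2.33 ± 0.53. The differences of 0.35 and 0.54 were close to 1 SD of the βCat-GOF mice. The βCat-GOF mice ran from 3.11 to 4.07 for replication and from 1.73 to 3.03 for mitosis, and the Ctrl mice from 2.91 to 3.61 and from 1.39 to 2.08, so the groups overlapped in both sets.

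Relative to the Ctrl mean, βCat-GOF 5 was 0.83 higher for replication and 1.25 higher for mitosis on the log2 scale, and βCat-GOF 1 was 0.74 and 0.99 higher. In these 2 mice both sets were above every Ctrl mouse. βCat-GOF 6 was 0.20 higher for replication, within the Ctrl range, and 0.70 higher for mitosis, above it. βCat-GOF 3 was 0.17 and 0.40 higher, again with only the mitosis set above the Ctrl range. βCat-GOF 2 was 0.29 higher for replication and -0.055 for mitosis, and βCat-GOF 4 was at -0.12 and -0.029, so these mice stayed within the Ctrl range in both sets. Among controls, Ctrl 2 was highest (0.37 and 0.30) and Ctrl 4 lowest (-0.32 and -0.39).

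**Figure D3:**
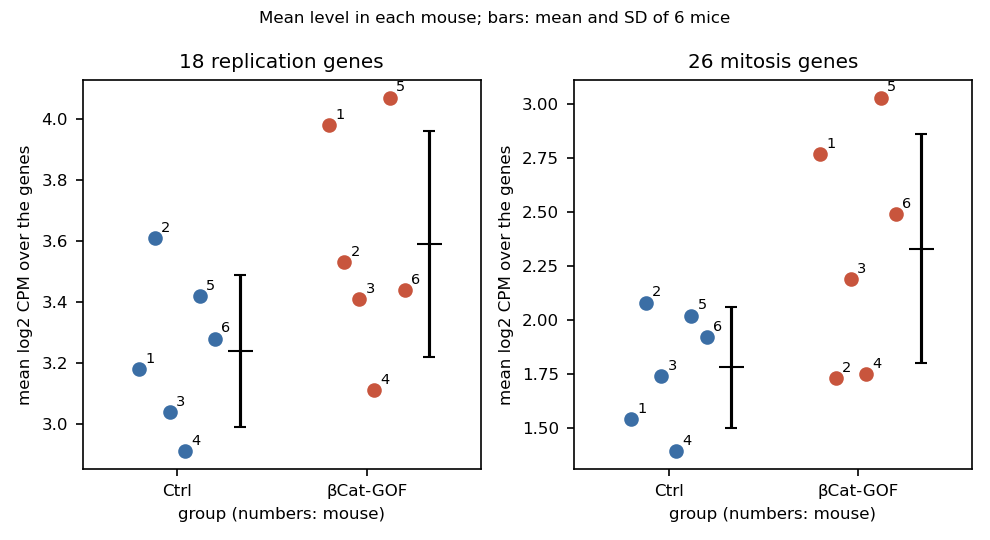
Mean log2 CPM over the 18 replication genes (left) and over the 26 mitosis genes (right) in each mouse, Ctrl in blue and βCat-GOF in red, with the mean and SD of 6 mice as bars and mouse numbers beside the points. The vertical axes do not start at 0. For replication 2 βCat-GOF mice and for mitosis 4 lie above the highest Ctrl mouse.

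Counted gene by gene, βCat-GOF 5 and βCat-GOF 1 again stood highest, and the order of the other mice was not the same in both counts. βCat-GOF 5 was above the highest Ctrl mouse in 16 of 18 replication genes and 25 of 26 mitosis genes, and βCat-GOF 1 in 15 and 25. βCat-GOF 6 was above it in only 3 replication genes but in 25 mitosis genes. βCat-GOF 3 was above it in 6 and 14, βCat-GOF 2 in 5 and 3, and βCat-GOF 4 in 2 and 5. Over all genes tested, single βCat-GOF mice were above the highest Ctrl mouse in 19.8% to 27.0% of genes. βCat-GOF 5 had the highest value of the 12 mice in 12 replication genes and 23 mitosis genes, against 6.43% of all genes tested. Ctrl 4 had the lowest in 8 and 13, for which the share over all genes was not computed.

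**Figure D4:**
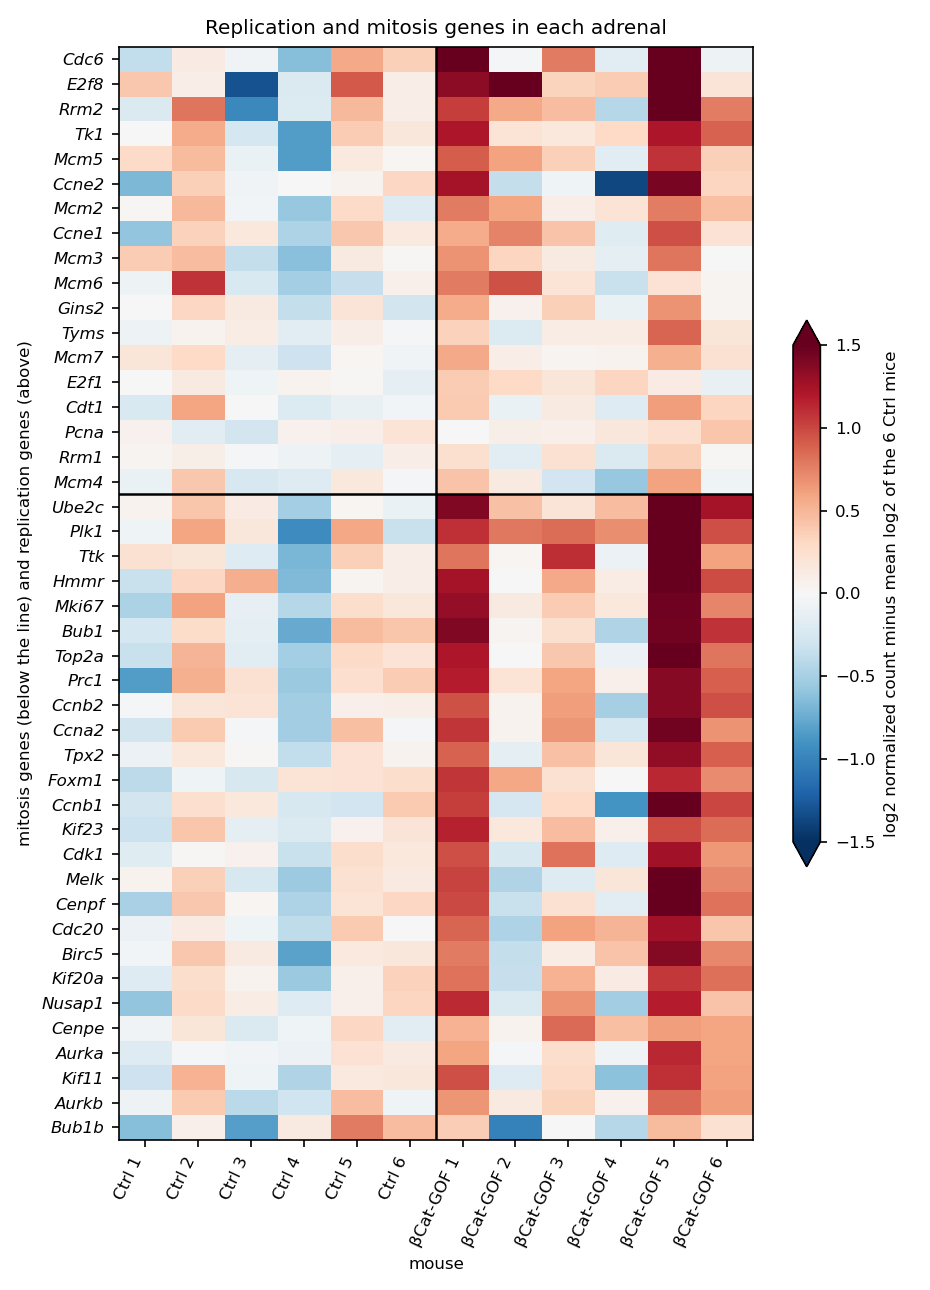
Log2 normalized count of each of the 44 genes in each mouse, minus the mean log2 value of the 6 Ctrl mice, with replication genes above the horizontal line, mitosis genes below it and groups divided by the vertical line. Red is above and blue below the Ctrl mean, with colours ending at 1.5 either way. The columns of βCat-GOF 1 and 5 are red nearly throughout, that of βCat-GOF 6 mostly below the line, and those of βCat-GOF 2 and 4 are mixed.

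The spread within groups was wider than that of other genes, which were not matched to the sets in counts. The median SD of log2 CPM over the mitosis genes was 0.34 in Ctrl and 0.60 in βCat-GOF, and over the replication genes 0.37 and 0.39. Over genes tested within the range of base means of both sets together it was 0.21 and 0.29. A base mean above 100 was reached by 9 of 26 mitosis genes and 11 of 18 replication genes. Of all genes tested, 11431 of 14953 reached it. Genes with few counts carry larger counting error, and its share in the wider spread was not tested.

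Other genes of the same processes were listed from their known roles, also with earlier results of these data known. Of 38 further replication genes, 29 were higher and 9 lower in βCat-GOF, with a median log2 fold change of 0.090, and 2 of them rose with an edgeR adjusted p under 0.05, against 2.16% of all genes tested. *Slbp* (chr5:33634952-33652574), which binds the stem-loop of histone mRNAs, had 700, 608, 648, 612, 678 and 712 normalized counts in Ctrl 1 to 6 and 739, 818, 946, 966, 883 and 1079 in βCat-GOF 1 to 6. The groups did not overlap, and the log2 fold change was 0.45 (SE 0.089, edgeR adjusted p = 0.014). Its order of mice was another than that of the members, with βCat-GOF 1 the lowest of its group. *Fen1* (chr19:10199132-10204169), the flap endonuclease of Okazaki fragments, had 377, 374, 344, 306, 376 and 420 in Ctrl 1 to 6 and 500, 431, 486, 549, 440 and 535 in βCat-GOF 1 to 6. These groups did not overlap either (log2 fold change 0.41, SE 0.10, edgeR adjusted p = 0.038), but 84.2% of its exon bases overlap *Tmem258* and *Gm10143* on the other strand, and its adjusted p was between 0.060 and 0.085 without Ctrl 2, 3, 4 or 5 or βCat-GOF 3, 4 or 6, and 0.11 with 1 library per stem.

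Of 56 further mitosis genes 55 were tested, 51 were higher and 4 lower, with a median log2 fold change of 0.46. *Cdca8*, a further subunit of the chromosomal passenger complex, was the only one to rise with an edgeR adjusted p under 0.05, a share near that of all genes. It had 56.2, 48.3, 50.3, 32.6, 60.2 and 46.1 normalized counts in Ctrl 1 to 6 and 87.3, 102, 56.4, 66.4, 130 and 96.4 in βCat-GOF 1 to 6. Only βCat-GOF 3 was within the Ctrl range (log2 fold change 0.87, SE 0.22, edgeR adjusted p = 0.046). The adjusted p stayed under 0.05 only when βCat-GOF 1, 3 or 4 was the mouse left out, and was at most 0.098 when it was any of the others.

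Of the markers of cell types in the gland, some of the zG and of macrophages, and *Cd4* of the T cell markers, differed between the groups. The summed level of 4 zG markers (*Cyp11b2*, *Dab2*, *Agtr1b* and *Vsnl1*) was 861 to 1278 CPM in Ctrl and 1081 to 2228 CPM in βCat-GOF, and 3 of the 4 (*Dab2*, *Agtr1b* and *Vsnl1*) rose with an edgeR adjusted p under 0.05. *Cyp11b2* itself, the aldosterone synthase gene whose locus drives Cre, had 5162 ± 2063 and 4544 ± 2824 normalized counts in Ctrl and βCat-GOF (log2 fold change -0.18, edgeR adjusted p = 0.82). By mouse the zG sum was 2228, 2073, 1107, 1081, 1424 and 1408 CPM in βCat-GOF 1 to 6. Beside these stand the distances of the mitosis genes from the Ctrl mean given above, 0.99, -0.055, 0.40, -0.029, 1.25 and 0.70 in the same order. Macrophage markers summed to 118 to 170 CPM in Ctrl and 92.4 to 147 CPM in βCat-GOF, with 3 of 5 lower at an adjusted p under 0.05. These were *Itgax* (edgeR adjusted p = 0.0020), *Adgre1* (0.046) and *Mrc1*, which lay at the limit (0.050 when rounded). *Cd68* was also lower (log2 fold change -0.72, edgeR adjusted p = 0.12), but *Csf1r* was slightly higher (0.11, edgeR adjusted p = 0.72). T cell markers summed to 1.76 to 2.79 CPM in Ctrl and 0.701 to 1.41 CPM in βCat-GOF. *Cd4*, the only one of the 4 tested and the most abundant, fell from 24.2 ± 9.52 to 9.49 ± 2.51 normalized counts. *Cd3e*, *Cd3g* and *Cd8a* had Ctrl means of only 5.85, 8.64 and 5.69 normalized counts and overlapped between the groups. The sums for B cells (at most 3.79 CPM), neutrophils (at most 1.42 CPM, with *Ly6g* never above 3 counts), endothelium (327 to 453 CPM), capsule and stroma (130 to 253 CPM), erythroid cells (89.1 to 265 CPM) and adipocytes (81.7 to 570 CPM) overlapped between the groups, with no tested marker at an adjusted p under 0.05. The same held for the medulla (3840 to 11774 CPM), the steroidogenic cortex and the X-zone (112 to 6178 CPM). The part of these cell types in the values of the 44 genes was not tested.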

How the data were processed

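Whole adrenals of 6 Ctrl and 6 βCat-GOF female mice were sequenced as mRNA libraries, and samples were grouped by the genotype in the labels. The authors trimmed reads with cutadapt, aligned them to mm10 with STAR, used featureCounts 1.4.4 to count the uniquely mapping reads of each gene and compared groups with DESeq2 1.6.3. Annotation release and strand setting are not given in the sources used here. The authors deposited raw counts, used for all tests, and a signal table of the same counts divided by 1 factor per library, used for symbols and an alternative. The 44 members and the further lists were chosen with earlier results of these data known.

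All genes passing filterByExpr (14953) were fitted with edgeR 4.0.16 (TMM, quasi-likelihood test, two-sided, Benjamini-Hochberg adjustment) in R 4.3.3. Scripts were tested on simulated data in which 200 genes were changed by a fold of 2, up or down. Normalized counts are counts divided by median-of-ratios factors of DESeq2 1.42.0. Log2 CPM used a prior count of 2, and RPKM used exon lengths of GENCODE M21. Copies were searched with blastn 2.17.0 (identity of 95% or more over 10% or more of the transcript). In these libraries 3 counts correspond to 0.117 to 0.222 CPM, and genes with few counts carry large counting error. Values in every mouse are given for *Mki67*, *Top2a*, *Pcna*, *Mcm2*, the 6 members of each set with the smallest p and, of the further lists, genes with an adjusted p under 0.05. *Bub1b* and the further statements on single mice were added after the values were seen. Alternatives were DESeq2, other size factors, no filter, at least 10 counts in every mouse, other limits, 1 surrogate variable (sva 3.50.0), a prior count of 0.5, the median of a set, and leaving out mice.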

Additional observations from a re-analysis of the deposited data

Results flagged for a closer look

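Of 92 groups of 6 values tested, 3 held a mouse whose gap to the nearest other mouse was over 0.625 of the range of its group, Dixon's 95% limit for 6 values, which chance alone exceeds in about 1 of 20 groups. In *Cdt1*, Ctrl 2 was the highest (a gap of 0.73 of the range, 128 normalized counts, log2 CPM 2.71 against 2.11 in the next mouse). In *Mcm6*, Ctrl 2 was again the highest (0.64 of the range, 1252 normalized counts, log2 CPM 5.98 against 4.96). In *Ccnb2*, Ctrl 4 was the lowest (0.66 of the range, 32.6 normalized counts, log2 CPM 0.79 against 1.25).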

How the results depend on the processing

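The count of 0 replication genes at an adjusted p under 0.05 and of 0 past the cut-offs held under every alternative run, and the median fold change of each set stayed above 0. *Mcm4* reversed from 0.071 to -0.0015 without βCat-GOF 1, -0.045 without βCat-GOF 5 and -0.093 without the mice that repeat a stem (-0.045 to 0.17 without single mice), and *Bub1b* from -0.084 to 0.10 without Ctrl 5 and 0.069 without βCat-GOF 2 (-0.21 to 0.10 without single mice). No other member, and none of *Slbp*, *Fen1* and *Cdca8*, reversed. For mitosis DESeq2 gave 6 genes at an adjusted p under 0.05 and 1 past the cut-offs (*Tpx2*). Leaving out 1 mouse gave 0 to 1 mitosis genes at an adjusted p under 0.05 (1, *Ube2c*, without βCat-GOF 3), 1 to 3 mitosis genes without overlap between groups (*Plk1* and *Ube2c* without Ctrl 2 or βCat-GOF 3, and *Plk1*, *Cdc20* and *Cenpe* without βCat-GOF 2), and 0 to 1 such replication genes (*Tyms* without βCat-GOF 2). With a mouse left out, any gene reaches a lack of overlap more easily. The share of all genes without overlap was not computed for these settings. The difference in mean log2 CPM was 0.25 to 0.45 for replication and 0.40 to 0.66 for mitosis without single mice, and 0.21 and 0.38 without the mice that repeat a stem.

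Of the further replication genes, 1 instead of 2 had an adjusted p under 0.05 with 1 surrogate variable, with no filter and without the mice that repeat a stem, 3 with DESeq2, and 1 to 2 without single mice. Of the further mitosis genes DESeq2 called 3, and 0 passed with no filter, without the mice that repeat a stem and without βCat-GOF 5, with 0 to 1 without single mice. *Slbp* kept an adjusted p under 0.05 in 20 of 20 alternatives, *Fen1* in 10 and *Cdca8* in 7. The causes of these shifts were not tested. Counts as low as 6.86 (*E2f8* in Ctrl 3) limit what can be read from the rarest transcripts. No paired analysis was possible because the labels give no replicate numbers shared by the groups.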
